A study of Mus musculus with 12 samples.

Results

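The B cell genes described here are 9 of the 54532 genes in the deposited table of counts, namely *Ighm*, *Igkc*, *Cd79a*, *Cd79b*, *Ms4a1*, *Pax5*, *Ebf1*, *Fcmr* and *Fcrla*. They were picked by symbol, as genes seen to be higher in cultures treated with the metabolite indole-3-propionic acid (IPA), so their levels and fold changes are given as a description without p-values, and counts of members called are not support for their direction. All 9 passed the filter on low counts, which left 14894 genes. IPA is a product of tryptophan breakdown by gut bacteria, and the study asked how it acts on the output of myeloid cells by bone marrow. Bone marrow cells of wild-type (WT) C57BL/6 mice were grown for 5 days with the cytokines GM-CSF and IL-6, which favor myeloid growth, and RNA-seq was performed on 4 libraries with vehicle (0.1% DMSO), 4 with 10 µM IPA and 4 with 50 µM IPA. The treatment label of the IPA cultures names no DMSO. The study's text describes lower cell viability at the higher dose. The study's methods describe young adult female mice for its experiments as a whole. Whether the libraries of a group came from separate mice is not given in the sources used here, so p-values measure the spread between these libraries, which may be technical.

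B cells are lymphocytes that recognize antigen through the B cell receptor, a membrane immunoglobulin made of heavy and light chains that signals through the paired proteins CD79A and CD79B. They develop in the bone marrow from lymphoid progenitors under the transcription factors EBF1 and PAX5, pass through pro-B and pre-B stages, and leave as cells with IgM and then IgD on their surface. Plasma cells, the antibody-secreting end stage, keep immunoglobulin transcription but shut down much of the rest of this program. In RNA from a whole culture, a change in the share of B cells and a change in RNA per B cell cannot be told apart.

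Reads counted on genes amounted to 22417710 to 26442653 per library with vehicle, 20848854 to 28038612 at 10 µM and 20451312 to 26925143 at 50 µM. Levels are given as CPM, which are counts scaled by library size (with edgeR's TMM normalization over the 12 libraries), so that 1 CPM stands for 20 to 28 reads. Fold changes are on the log2 scale with their standard error (SE), from edgeR fits to the 8 libraries of each pair of groups, and a gene counted as called at an adjusted p under 0.05 (quasi-likelihood test, Benjamini-Hochberg adjustment over all genes tested). Both doses were compared with vehicle, and the 50 µM group with the 10 µM group (a positive value between the doses means higher at 50 µM). The 3 comparisons share groups and are therefore not independent of each other. The median log2 fold change of all genes tested was -0.01 at 10 µM and 0.01 at 50 µM against vehicle, and 0.01 between the doses. Myeloid transcripts were far more abundant than those of B cells. The summed level of 10 neutrophil markers lay between 14120 and 28430 CPM over the 12 libraries, while that of the 9 B cell genes lay between 70.6 and 155 CPM.

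The positions of the 9 genes are those of GENCODE M21 on GRCm38, the build named in the submitters' processing notes. The constant region gene of the IgM heavy chain, *Ighm*, lies on chromosome 12 from 113418558 to 113422730 on the minus strand, and that of the kappa light chain, *Igkc*, on chromosome 6 from 70726435 to 70726966 on the plus strand. *Cd79a* is on chromosome 7 from 24897381 to 24902197 and *Cd79b* on chromosome 11 from 106311341 to 106314762. *Ms4a1* is on chromosome 19 from 11249675 to 11266241, *Fcmr* on chromosome 1 from 130865669 to 130880791 and *Fcrla* on chromosome 1 from 170917576 to 170927583. The long genes *Pax5* (chromosome 4, 44524757 to 44710487) and *Ebf1* (chromosome 11, 44617317 to 45008091) encode the transcription factors. Counts cover exons. The strand setting of the counting is not given in the sources used here. *Pax5* shares exon positions with 2 opposite-strand genes, *Gm12462* and *5730488B01Rik*, and these had 0 reads and 0 to 3 reads per library. The processed pseudogene *Gm2962*, with 53 to 114 reads per library, lies on the same strand within an intron of *Fcrla* and overlaps no *Fcrla* exon.

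The 5 members with a promoter entry in RefSeq (GRCm38.p6) were *Cd79a*, *Ebf1*, *Fcmr*, *Fcrla* and *Pax5*, with 6 windows of 300 bases, from 250 before to 50 after a transcription start, and 2 of these windows belong to *Ebf1*. *Cd79b*, *Ms4a1*, *Ighm* and *Igkc* have no entry. Each window was searched on both strands for 6 short motifs: the EBF consensus (named only), ATGCAAAT (the octamer of immunoglobulin promoters), CAGCTG and CAGGTG (E-boxes), AGGAAGT (ETS factors) and TGTGGTT (RUNX factors). The motifs do not contain each other. Of all 32851 windows in the table, 0.904% held the EBF consensus, 1.74% ATGCAAAT, 16.3% CAGCTG, 20.2% CAGGTG, 9.35% AGGAAGT and 5.27% TGTGGTT. Among the windows of the members, CAGGTG was found in *Cd79a*, *Fcmr* and *Fcrla*, CAGCTG in *Fcmr*, AGGAAGT in *Cd79a* and TGTGGTT in 1 of the windows of *Ebf1*. None of the 6 was found in the window of *Pax5* or in the other window of *Ebf1*, and neither the EBF consensus nor ATGCAAAT was found in any of the 6 windows. Such matches are letters in a window and were not tested as binding sites. Only full matches were counted, so a site that differs from the searched letters was missed, and a window without a match may still hold one. The windows of the 3 members that held an E-box, and that of *Pax5* as the member with the highest ratio of 50 µM to vehicle, are printed 5′ to 3′ on the strand of the gene, with motif matches in capitals.
Cd79a, chr7:24897247-24897546, plus strand: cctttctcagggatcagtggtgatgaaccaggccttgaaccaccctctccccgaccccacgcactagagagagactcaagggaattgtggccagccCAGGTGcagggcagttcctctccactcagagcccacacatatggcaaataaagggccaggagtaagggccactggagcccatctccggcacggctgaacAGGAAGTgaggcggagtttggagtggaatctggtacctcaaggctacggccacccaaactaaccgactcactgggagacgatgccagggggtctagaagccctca
Fcmr, chr1:130865527-130865826, plus strand: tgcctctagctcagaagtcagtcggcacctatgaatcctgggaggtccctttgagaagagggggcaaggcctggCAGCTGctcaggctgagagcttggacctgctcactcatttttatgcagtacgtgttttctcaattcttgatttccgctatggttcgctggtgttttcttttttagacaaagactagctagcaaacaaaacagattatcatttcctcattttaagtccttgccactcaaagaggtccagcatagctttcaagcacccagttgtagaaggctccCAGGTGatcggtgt
Fcrla, chr1:170927534-170927833, minus strand: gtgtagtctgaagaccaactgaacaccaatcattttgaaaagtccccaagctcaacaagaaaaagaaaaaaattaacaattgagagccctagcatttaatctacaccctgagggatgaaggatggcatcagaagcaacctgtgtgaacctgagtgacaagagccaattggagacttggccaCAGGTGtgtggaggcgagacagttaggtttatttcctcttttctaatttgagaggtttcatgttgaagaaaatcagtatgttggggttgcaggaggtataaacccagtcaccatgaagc
Pax5, chr4:44710645-44710944, minus strand: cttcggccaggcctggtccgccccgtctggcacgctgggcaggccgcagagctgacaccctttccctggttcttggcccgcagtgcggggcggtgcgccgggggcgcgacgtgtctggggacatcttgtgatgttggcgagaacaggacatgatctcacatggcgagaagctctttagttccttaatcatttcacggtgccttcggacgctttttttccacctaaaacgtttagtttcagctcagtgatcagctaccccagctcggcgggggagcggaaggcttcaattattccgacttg

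Compared per length, in TPM (reads per kilobase of exon, scaled to the same total in each library), the antigen receptor chains stood above the other members. With vehicle, *Igkc* was at 65.1 ± 12.5 TPM (SD, n = 4) and *Ighm* at 60.1 ± 8.24 TPM, a difference smaller than the spread. *Cd79b* followed at 14.1 ± 1.39 TPM and *Cd79a* at 12.0 ± 3.52 TPM, again within their spread. *Fcmr*, *Fcrla* and *Ms4a1* were at 5.69 ± 0.594, 3.89 ± 0.671 and 1.76 ± 0.202 TPM, in steps larger than these SDs. The transcription factor genes were lowest, *Pax5* at 1.07 ± 0.352 TPM and *Ebf1* at 0.357 ± 0.149 TPM. The mean over the 12 libraries gave the same order, from 90.5 TPM for *Igkc* to 0.528 TPM for *Ebf1*.

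Across the cultures, each of the 9 genes had its lowest mean CPM with vehicle, a higher one at 10 µM and the highest at 50 µM. The summed level of the 9 was 73.4, 81.3, 70.6 and 81.3 CPM in the 4 vehicle libraries, 112, 107, 89.2 and 84.6 CPM at 10 µM and 142, 155, 123 and 106 CPM at 50 µM. The vehicle libraries all lay below the 10 µM libraries, and the lowest sum at 50 µM lay inside the range at 10 µM. The means of these sums were 76.6 ± 5.48, 98.2 ± 13.4 and 131 ± 21.3 CPM (SD, n = 4), 1.28 times the vehicle mean at 10 µM and 1.71 times at 50 µM. *Ighm* made up 40.5% to 52.9% of the sum and *Igkc* 11.0% to 19.6%. Without these immunoglobulin genes the sum was 1.23 times the vehicle mean at 10 µM and 2.01 times at 50 µM.

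**Figure D1:**
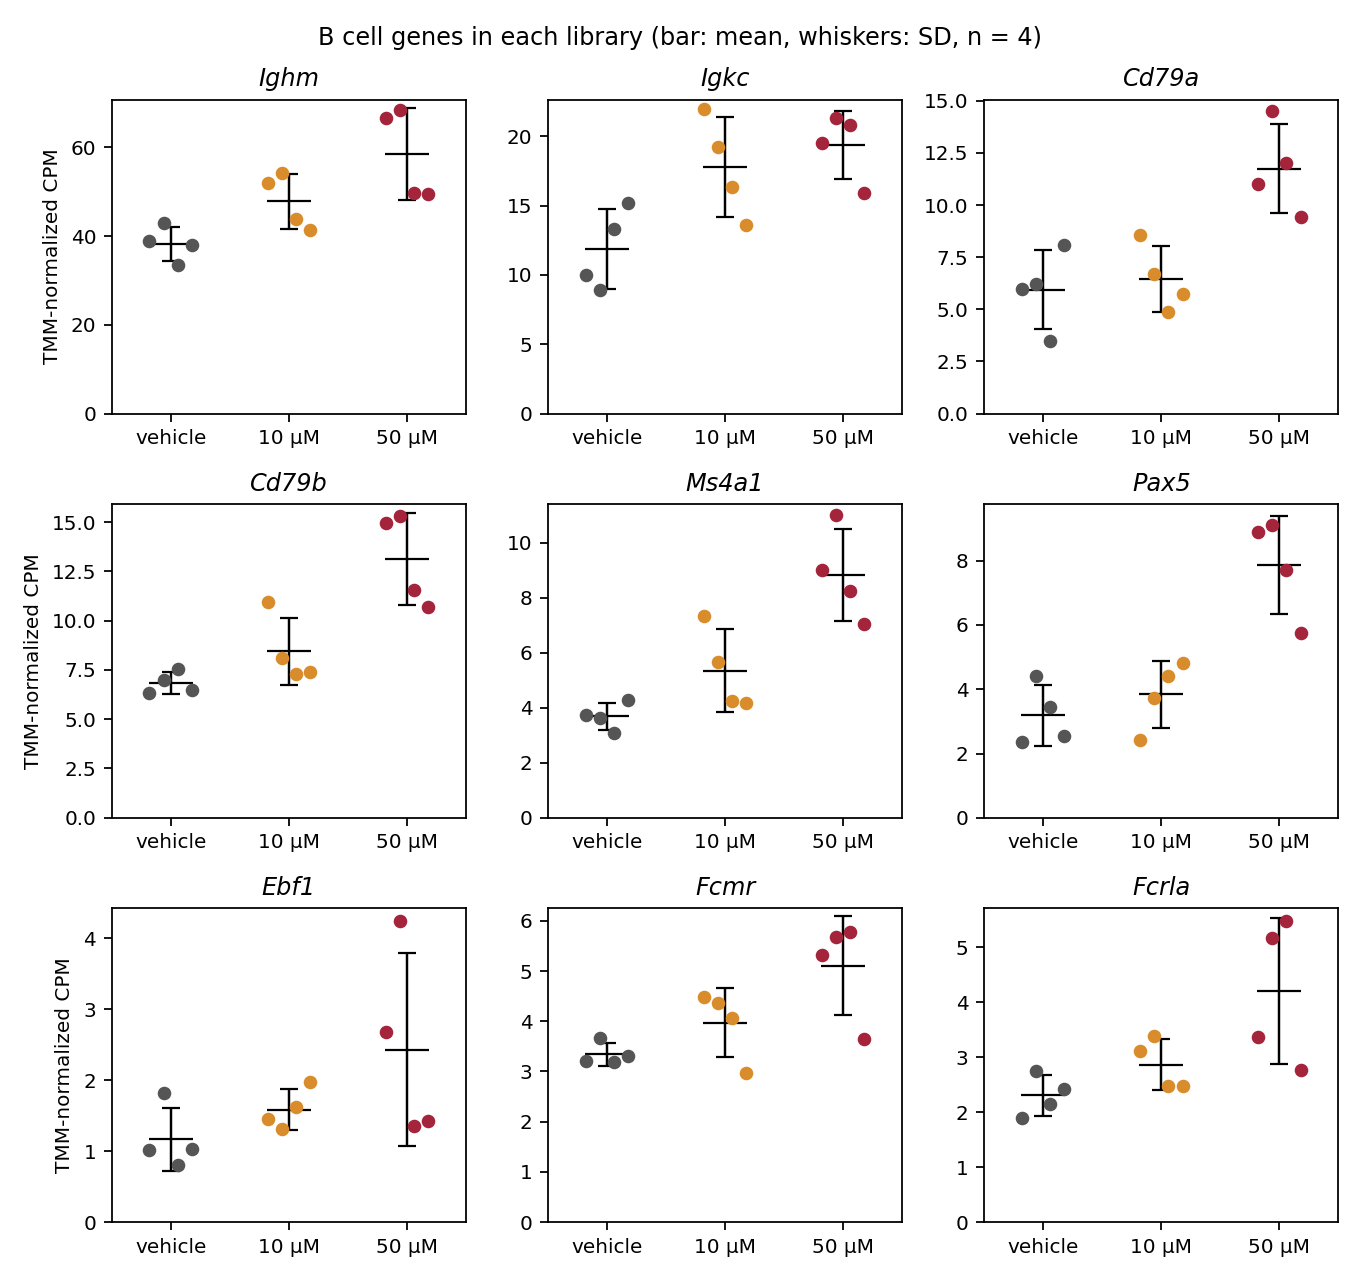
Level of each of the 9 B cell genes in TMM-normalized CPM (vertical axes from 0, scaled per gene) in vehicle, 10 µM and 50 µM libraries; points are libraries, bars group means and whiskers SD (n = 4). For *Cd79a* and *Pax5* the 4 libraries at 50 µM lie above all others, while for *Ebf1* and *Fcmr* the 50 µM libraries overlap the vehicle libraries.

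*Ighm* encodes the constant part of the IgM heavy chain, the first immunoglobulin class a B cell makes. It was at 38.9, 42.9, 33.5 and 37.9 CPM in the vehicle libraries 1 to 4, at 52.1, 54.1, 43.8 and 41.5 CPM in those with 10 µM and at 66.7, 68.4, 49.7 and 49.6 CPM in those with 50 µM. All 50 µM libraries lay above all vehicle libraries, and replicate 4 of the 10 µM group lay within the vehicle range. The log2 fold change was 0.32 (SE 0.10) at 10 µM and 0.62 (SE 0.12) at 50 µM against vehicle, and 0.30 (SE 0.12) between the doses.

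*Igkc* encodes the constant part of the kappa light chain, used by most mouse B cells. Its level was 10.0, 8.91, 13.3 and 15.2 CPM with vehicle, 22.0, 19.3, 16.4 and 13.6 CPM at 10 µM and 19.5, 21.4, 20.8 and 15.9 CPM at 50 µM. The 50 µM libraries lay above the vehicle libraries, but none lay above the highest library at 10 µM. *Igkc* had the largest log2 fold change of the 9 genes at 10 µM against vehicle, 0.59 (SE 0.18), and the smallest between the doses, 0.13 (SE 0.14), with 0.72 (SE 0.16) at 50 µM against vehicle.

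*Cd79a* encodes one of the signaling partners of membrane immunoglobulin. It was at 5.97, 6.20, 3.49 and 8.11 CPM with vehicle, 8.54, 6.68, 4.89 and 5.72 CPM at 10 µM and 11.0, 14.5, 12.0 and 9.44 CPM at 50 µM. The vehicle and 10 µM libraries overlapped, and every 50 µM library lay above both groups. Its log2 fold change was 0.12 (SE 0.24) at 10 µM and 0.99 (SE 0.21) at 50 µM against vehicle, and 0.87 (SE 0.17) between the doses. The first of these changed sign when single libraries were left out, with -0.06 without vehicle replicate 3, the lowest vehicle library for this gene, a value below 0 also without 10 µM replicate 1, and 0.30 without vehicle replicate 4, the highest.

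*Cd79b* encodes the other signaling partner. It was at 6.35, 6.98, 7.57 and 6.48 CPM with vehicle, 10.9, 8.13, 7.30 and 7.41 CPM at 10 µM and 14.9, 15.3, 11.6 and 10.7 CPM at 50 µM. All 50 µM libraries lay above the vehicle libraries, and replicate 4 at 50 µM lay just under replicate 1 at 10 µM. The log2 fold changes were 0.31 (SE 0.15) at 10 µM and 0.95 (SE 0.14) at 50 µM against vehicle, and 0.64 (SE 0.16) between the doses. Without replicate 1 of the 10 µM group, the value for 10 µM against vehicle was 0.15.

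*Ms4a1* encodes CD20, a surface protein of B cells that is lost in plasma cells. It was at 3.74, 3.64, 3.09 and 4.29 CPM with vehicle, 7.35, 5.66, 4.25 and 4.17 CPM at 10 µM and 9.03, 11.0, 8.25 and 7.05 CPM at 50 µM. Replicates 3 and 4 at 10 µM were within the vehicle range, and all 50 µM libraries were above it. *Ms4a1* had log2 fold changes of 0.54 (SE 0.21) at 10 µM and 1.27 (SE 0.17) at 50 µM against vehicle, and 0.72 (SE 0.19) between the doses.

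*Fcmr* encodes the Fc receptor for IgM, and *Fcrla* an intracellular Fc receptor-like protein of B cells. *Fcmr* was at 3.21, 3.67, 3.18 and 3.30 CPM with vehicle, 4.49, 4.36, 4.06 and 2.98 CPM at 10 µM and 5.32, 5.68, 5.77 and 3.65 CPM at 50 µM. Replicate 4 of each IPA group was the lowest of its group for *Fcmr* and lay below the highest vehicle library. *Fcrla* was at 1.89, 2.75, 2.15 and 2.42 CPM with vehicle, 3.11, 3.39, 2.48 and 2.47 CPM at 10 µM and 3.37, 5.16, 5.48 and 2.77 CPM at 50 µM. The lowest *Fcrla* library at 50 µM was only just above the highest vehicle library. Against vehicle, the log2 fold change of *Fcmr* was 0.62 (SE 0.18) at 50 µM and that of *Fcrla* 0.87 (SE 0.25). At 10 µM they were 0.25 (SE 0.17) and 0.31 (SE 0.21), and between the doses 0.36 (SE 0.19) and 0.56 (SE 0.23).

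*Pax5* encodes the factor that commits and holds cells to the B lineage. It was at 2.34, 4.42, 3.45 and 2.54 CPM with vehicle, 2.43, 3.73, 4.40 and 4.81 CPM at 10 µM and 8.89, 9.12, 7.71 and 5.75 CPM at 50 µM. Vehicle and 10 µM libraries overlapped, and every 50 µM library was above both groups. *Pax5* had the largest log2 fold change of the 9 genes at 50 µM against vehicle, 1.31 (SE 0.22), and between the doses, 1.04 (SE 0.21), beside 0.26 (SE 0.26) at 10 µM against vehicle.

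*Ebf1* encodes the factor that acts with PAX5 in early B cell specification. It was at 1.02, 1.82, 0.806 and 1.03 CPM with vehicle, 1.45, 1.31, 1.62 and 1.97 CPM at 10 µM and 2.69, 4.25, 1.36 and 1.43 CPM at 50 µM, which corresponds to 18 to 116 reads per library. Replicates 3 and 4 at 50 µM lay within the vehicle range but above the vehicle mean, and replicates 1 and 2 lay above all vehicle libraries. The log2 fold change was 0.43 (SE 0.31) at 10 µM and 1.06 (SE 0.39) at 50 µM against vehicle, and 0.63 (SE 0.34) between the doses. Without replicate 2 of the 50 µM group, the last 2 values were 0.63 and 0.20.

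**Figure D2:**
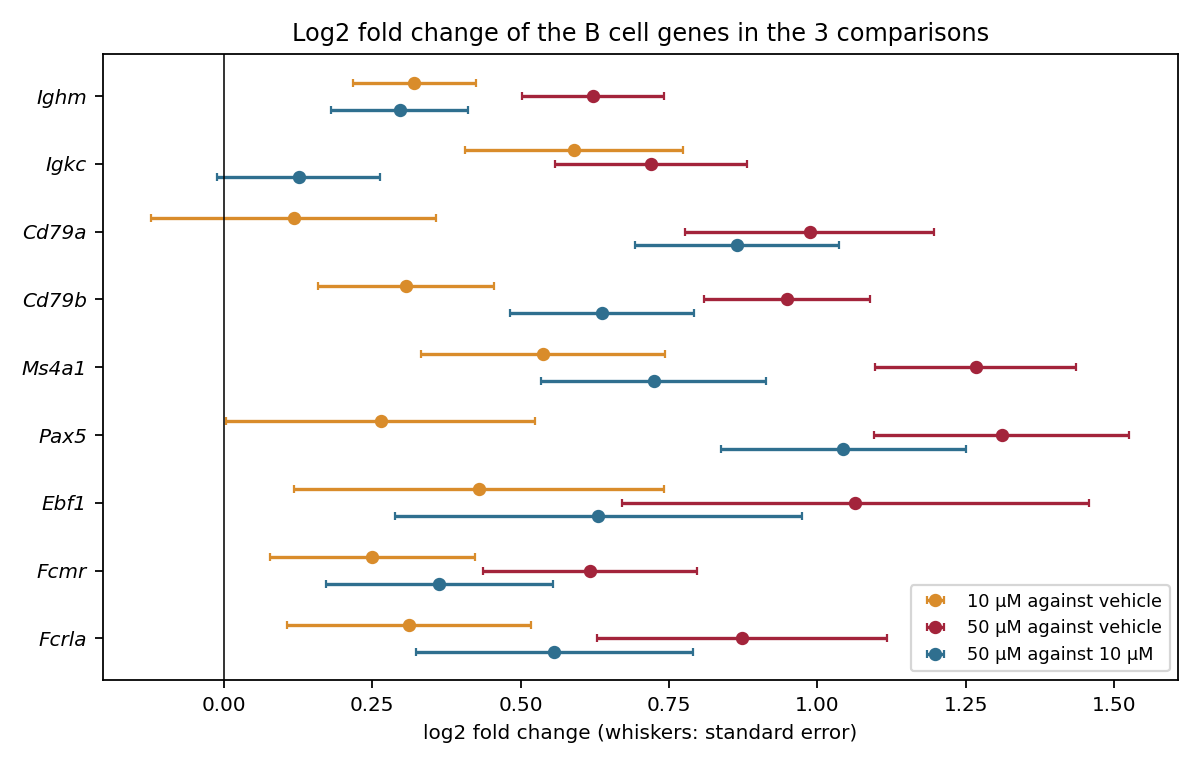
Log2 fold change of each B cell gene (horizontal axis) in the comparisons of each dose with vehicle and of 50 µM with 10 µM; points are edgeR estimates and whiskers 1 SE. All 27 points lie above 0, and for *Pax5* and *Cd79a* the points between the doses (1.04 and 0.87) lie far to the right of those at 10 µM against vehicle (0.26 and 0.12).

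At 10 µM against vehicle, the median log2 fold change of the 9 genes was 0.31 (range 0.12 to 0.59). Of the 9, 0 were called by edgeR and 0 by DESeq2, and 0.329% of all genes tested were called as higher. An unadjusted p under 0.05 in edgeR's test was given to 3 of the 9, beside 8.78% of all genes tested. In none did the 10 µM libraries all lie above the vehicle libraries, which 3.56% of all genes did. At 50 µM against vehicle, the median was 0.95 (range 0.62 to 1.31). Here 8 of the 9, all but *Ebf1*, were called as higher, as were 7.00% of all genes tested, and in 7, all but *Ebf1* and *Fcmr*, the groups did not overlap, as in 9.45% of all genes. Between the doses, the median was 0.63 (range 0.13 to 1.04), 4 of the 9 (*Cd79a*, *Cd79b*, *Ms4a1* and *Pax5*) were called as higher beside 7.52% of all genes, and *Cd79a* and *Pax5* did not overlap between the groups, beside 9.41% of all genes. These counts follow from how the genes were picked. They moved between 6 and 9 of 9 at 50 µM against vehicle and between 3 and 4 of 9 between the doses when 1 library was left out.

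The 9 genes varied together across libraries to different degrees. Over the 12 libraries, Pearson's r of log2 CPM between members lay between 0.36 and 0.94 (median 0.75, 36 pairs), a description in which the points share the treatment groups. The highest value was that of *Cd79b* with *Ms4a1*, and the lowest were those of *Igkc* with *Ebf1* and with *Pax5* (0.36 and 0.41). After the mean of each group was taken out, r lay between -0.38 and 0.85 (median 0.42), with 31 of 36 pairs above 0, *Cd79a* with *Ms4a1* highest and *Igkc* with *Pax5* lowest.

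The genes most like them in pattern were sought among 12598 other genes (mean level 1 CPM or more), as the 10 with the highest r over the 12 libraries to the average scaled profile of the 9. These were *Ccl24* (r = 0.96), *Irf8* (0.94), *Arhgap6* (0.94), *Spib* (0.94), *Aldh1a2* (0.93), *Ccl17* (0.93), *Ryr1* (0.93), *Pacsin1* (0.93), *Ccl5* (0.93) and *Rab20* (0.93). *Ccl24*, *Ccl17* and *Ccl5* encode chemokines, *Aldh1a2* a retinoic acid synthesizing enzyme, and *Irf8* and *Spib* transcription factors used by both B cells and dendritic cells. *Ccl24* went from 1.31 ± 0.169 CPM with vehicle to 4.69 ± 1.08 CPM at 10 µM and 13.1 ± 5.94 CPM at 50 µM (SD, n = 4). *Irf8*, at 86.6 ± 1.35 CPM with vehicle, was at 93.2 ± 3.73 CPM and 114 ± 5.18 CPM.

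Beyond the 9, 77 further B lineage genes in 6 lists (surface proteins, signaling, transcription factors, pro-B and pre-B genes, plasma cell genes and immunoglobulin constant genes) were looked at, and 67 passed the filter. At 10 µM against vehicle, edgeR called 2 as higher (*Blnk* and *Sdc1*) and 0 as lower, beside 0.329% and 0.0806% of all genes tested. Of the 67, 12 had an unadjusted p under 0.05, beside 8.78% of all genes tested, while DESeq2 called 3. At 50 µM against vehicle, 14 were called as higher and 8 as lower, beside 7.00% and 6.50% of all genes tested. Between the doses, 14 were higher and 10 lower, beside 7.52% and 7.85%. The median log2 fold change of the 67 was 0.11, 0.28 and 0.03 in the 3 comparisons.

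**Figure D3:**
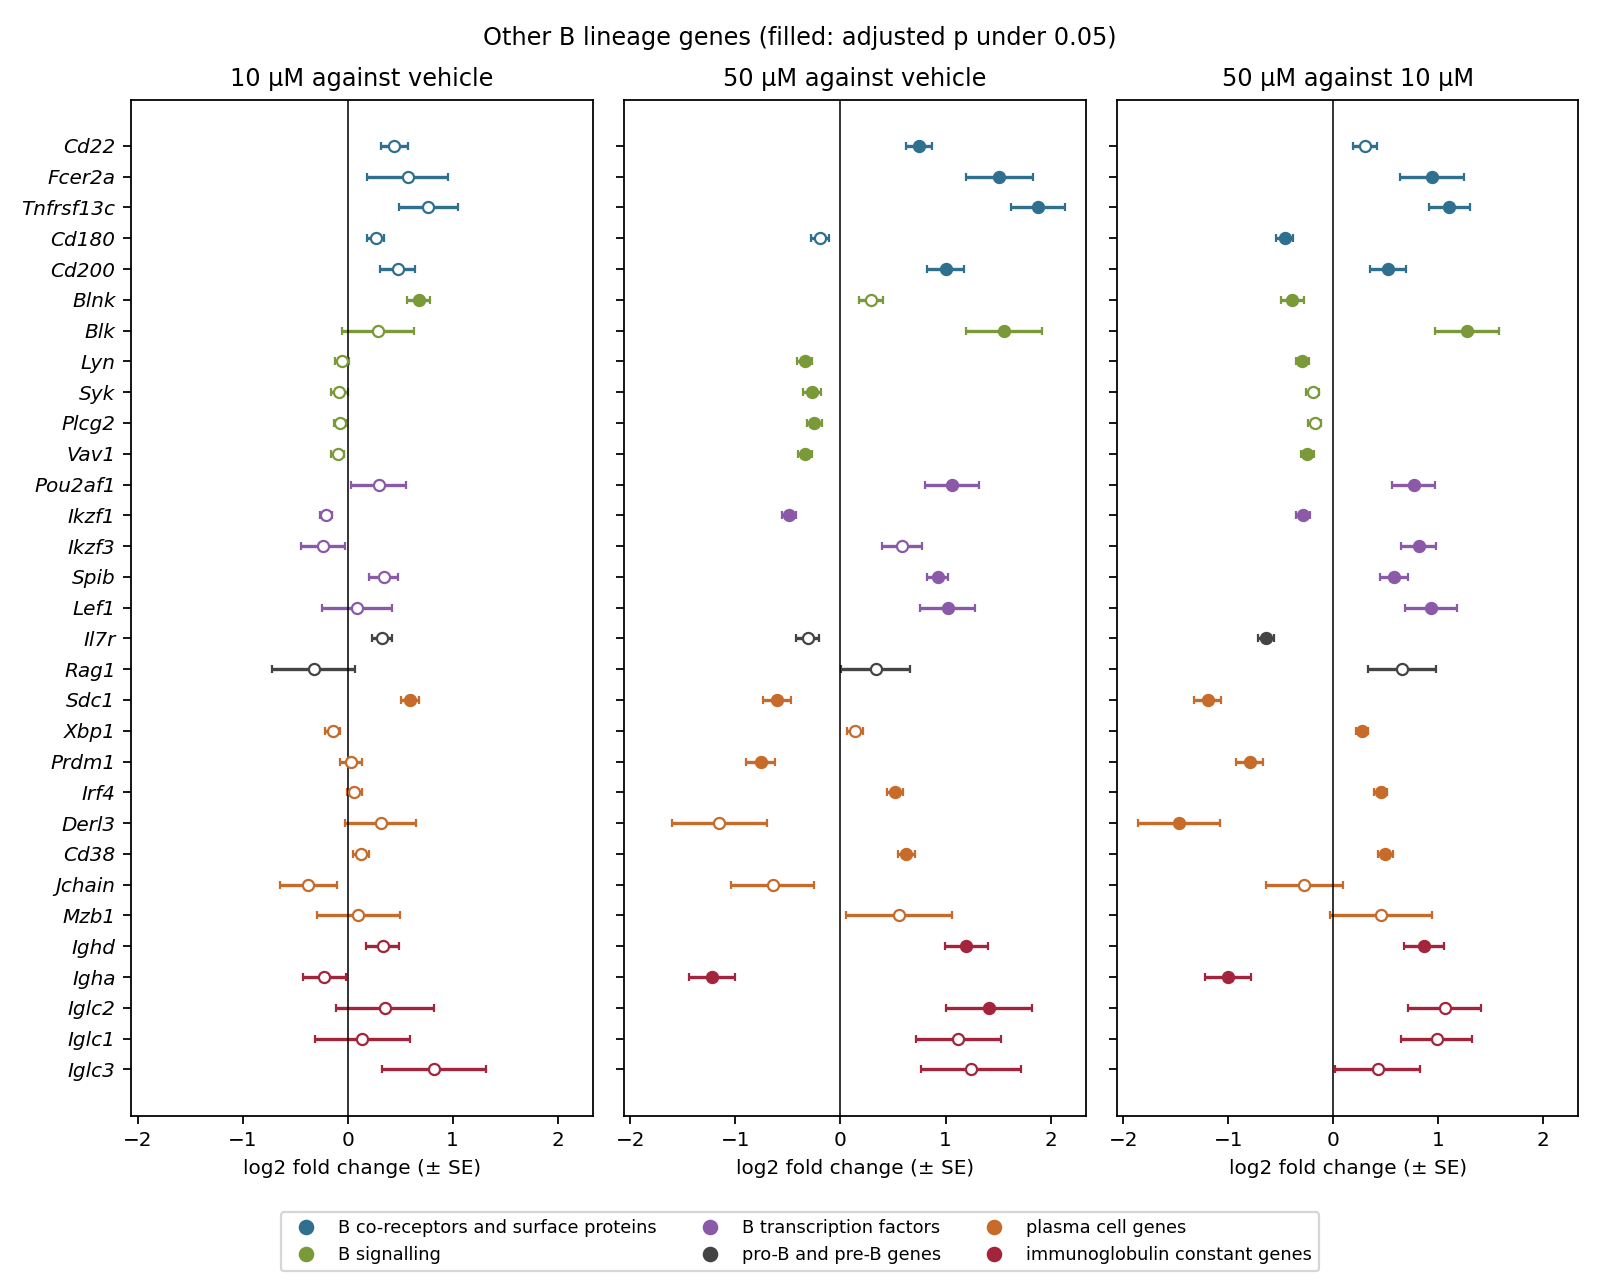
Log2 fold change (horizontal axis, whiskers SE) of further B lineage genes in the 3 comparisons, colored by list; filled points have an adjusted p under 0.05 in edgeR's quasi-likelihood test. In the middle panel, surface protein genes such as *Tnfrsf13c* (1.88) lie to the right and *Igha* (-1.22) and *Prdm1* (-0.76) to the left of 0.

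Among 17 tested genes of B cell surface proteins, 5 were higher at 50 µM than with vehicle, beside 7.00% of all genes tested. *Tnfrsf13c*, which encodes the receptor for the survival factor BAFF, had a log2 fold change of 1.88 at 50 µM against vehicle (SE 0.26, adjusted p = 0.000409 by edgeR) and was also higher at 50 µM than at 10 µM (1.11, SE 0.19, adjusted p = 0.00113). Its level was 0.835 to 1.78 CPM with vehicle, 1.92 to 2.17 CPM at 10 µM and 3.47 to 5.05 CPM at 50 µM, with no overlap between any of the groups. *Fcer2a*, which encodes the low-affinity IgE receptor CD23, had a log2 fold change of 1.51 (SE 0.32, adjusted p = 0.00708) for 50 µM against vehicle. The inhibitory receptor gene *Cd22* had 0.75 (SE 0.13, adjusted p = 0.00165) and *Cd200* 1.00 (SE 0.18, adjusted p = 0.00234). *Cd180*, a toll-like receptor relative found on B cells and myeloid cells, was lower at 50 µM than at 10 µM (-0.46, SE 0.08, adjusted p = 0.00115).

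The 12 genes of B cell receptor signaling went both ways. *Blk*, a Src family kinase gene of B cells, was higher at 50 µM than with vehicle, by a log2 fold change of 1.56 (SE 0.36, adjusted p = 0.0121). *Lyn*, *Syk*, *Plcg2* and *Vav1*, which myeloid cells use as well, were at means above those of the B cell genes and were lower at 50 µM than with vehicle, by -0.34 (SE 0.07, adjusted p = 0.00829), -0.27 (SE 0.08, adjusted p = 0.0479), -0.25 (SE 0.07, adjusted p = 0.0371) and -0.34 (SE 0.07, adjusted p = 0.0073). *Lyn*, for instance, lay between 206 and 247 CPM with vehicle and between 173 and 187 CPM at 50 µM. *Blnk*, an adaptor gene downstream of CD79A, was higher at 10 µM than with vehicle (0.68, SE 0.11, adjusted p = 0.0263) and lower at 50 µM than at 10 µM (-0.39, SE 0.11, adjusted p = 0.0258), a course unlike that of the 9 genes.

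Of 12 tested transcription factor genes, *Pou2af1*, *Spib* and *Lef1* were higher at 50 µM than with vehicle and *Ikzf1* was lower. Over all genes tested, 7.00% were called as higher and 6.50% as lower in this comparison. *Pou2af1*, the octamer coactivator gene of B cells, had a log2 fold change of 1.06 (SE 0.25, adjusted p = 0.0142), *Spib* 0.93 (SE 0.10, adjusted p = 8.24e-05) and *Lef1* 1.02 (SE 0.26, adjusted p = 0.0205). *Ikzf1*, which encodes the lymphoid and myeloid factor Ikaros, was at 303 to 318 CPM with vehicle and 202 to 235 CPM at 50 µM (-0.49, SE 0.07, adjusted p = 0.000479). *Ikzf3*, its B cell relative, was higher at 50 µM than at 10 µM (0.81, SE 0.17, adjusted p = 0.00366).

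The surrogate light chain genes *Vpreb1* and *Igll1*, which pro-B and pre-B cells use in place of a light chain, had 0 to 14 and 0 to 6 reads per library and did not pass the filter. *Vpreb2* had no read in any library. Of 8 tested pro-B and pre-B genes, edgeR called 0 for 10 µM and 0 for 50 µM against vehicle, 1 in each of these comparisons had an unadjusted p under 0.05 (beside 8.78% and 27.9% of all genes tested), and DESeq2 called 0 and 1 (*Il7r*). *Rag1*, a recombinase gene, was at 0.851 to 2.34 CPM with vehicle, 0.641 to 1.56 CPM at 10 µM and 1.55 to 2.31 CPM at 50 µM, with overlapping groups. *Il7r*, the IL-7 receptor gene, had 902 to 2247 reads per library, far more than *Vpreb1* or *Igll1*. It was lower at 50 µM than at 10 µM (-0.64, SE 0.08, adjusted p = 4.73e-05 by edgeR). Which cells its reads came from was not tested.

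Plasma cell genes were mixed as well. *Sdc1*, which encodes CD138, was at 39.5 to 46.4 CPM with vehicle, 55.8 to 70.4 CPM at 10 µM and 20.3 to 35.6 CPM at 50 µM, so that it was higher at 10 µM (0.59, SE 0.09, adjusted p = 0.0164) and lower at 50 µM (-0.60, SE 0.13, adjusted p = 0.00948) than with vehicle. *Prdm1*, the gene of the plasma cell factor Blimp-1, was lower at 50 µM than with vehicle (-0.76, SE 0.14, adjusted p = 0.0032). *Irf4* (0.52, SE 0.08, adjusted p = 0.000639) and *Cd38* (0.63, SE 0.08, adjusted p = 0.000183), both also used outside plasma cells, were higher. *Derl3*, of the secretory pathway, was lower at 50 µM than at 10 µM (-1.47, SE 0.39, adjusted p = 0.0181), and *Xbp1* higher (0.28, SE 0.06, adjusted p = 0.00346). The J chain gene *Jchain*, needed to join IgM and IgA into polymers, was at 1.30 to 2.98 CPM with vehicle, 1.36 to 1.81 CPM at 10 µM and 0.586 to 2.38 CPM at 50 µM and did not pass the test in any comparison. With vehicle, mean levels were 42.1 CPM for *Sdc1* and 17.3 CPM for *Prdm1*, beside 2.09 CPM for *Jchain*. Which cells the reads of *Sdc1* and *Prdm1* came from was not tested.

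The heavy chain genes beside *Ighm* differed in direction. *Ighd*, of IgD on mature B cells, was at 4.65, 4.53, 5.24 and 6.44 CPM with vehicle, 6.55, 5.32, 6.73 and 7.64 CPM at 10 µM and 9.52, 14.6, 15.3 and 8.14 CPM at 50 µM. All 50 µM libraries were above all others, and the log2 fold change for 50 µM against vehicle was 1.20 (SE 0.21, adjusted p = 0.00198). *Igha*, of IgA, was at 7.15, 5.75, 9.23 and 9.62 CPM with vehicle, 5.58, 5.18, 8.57 and 7.78 CPM at 10 µM and 2.64, 4.32, 2.43 and 3.99 CPM at 50 µM. It was lower at 50 µM in every library than in any vehicle library (-1.22, SE 0.22, adjusted p = 0.00288), and also lower than at 10 µM (-1.004, SE 0.22, adjusted p = 0.00547). For every 100 *Ighm* reads there were 21.2 ± 6.47 *Igha* reads with vehicle, 14.7 ± 5.25 at 10 µM and 5.80 ± 1.79 at 50 µM (SD, n = 4), and 13.8 ± 3.02, 14.1 ± 3.69 and 20.7 ± 7.32 *Ighd* reads.

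**Figure D4:**
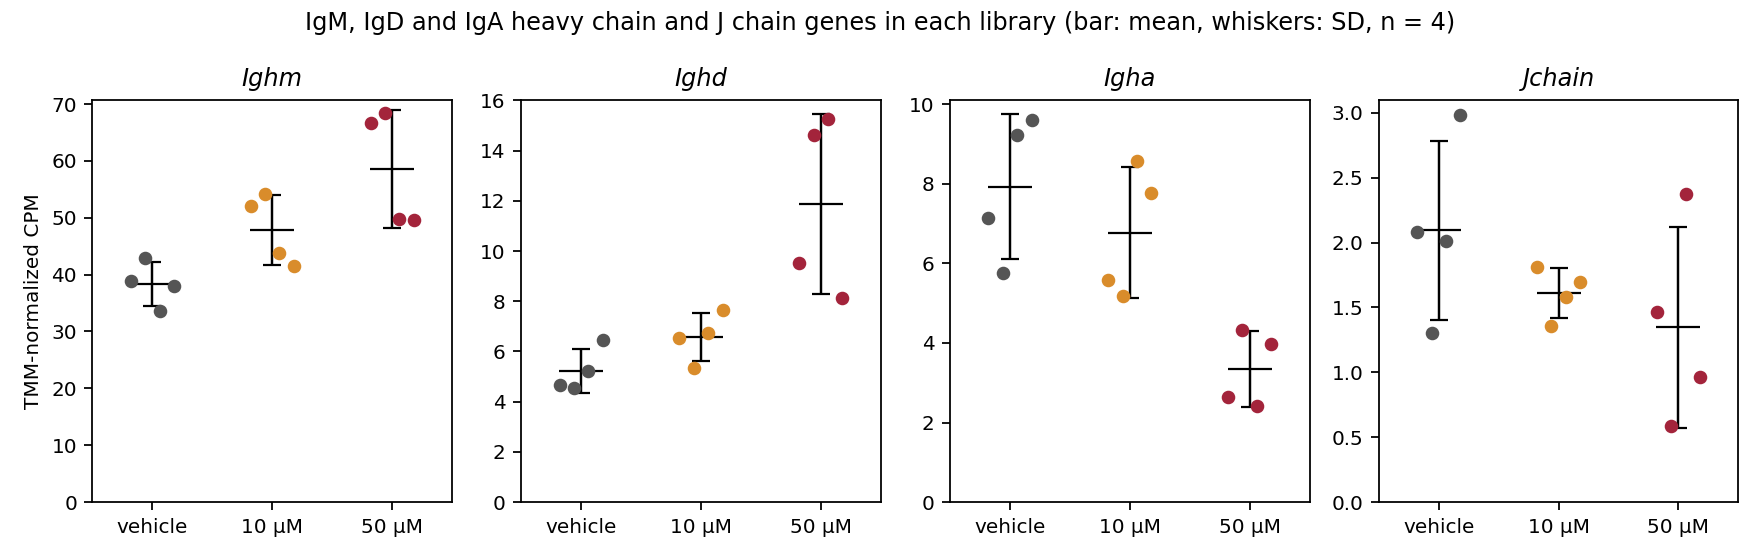
Level in TMM-normalized CPM (vertical axes from 0, scaled per gene) of *Ighm*, *Ighd*, *Igha* and *Jchain* in each library; points are libraries, bars group means and whiskers SD (n = 4). At 50 µM *Ighd* lies between 8.14 and 15.3 CPM, above all other libraries, and *Igha* between 2.43 and 4.32 CPM, below all others.

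The lambda light chain genes were low. *Iglc2* was at 0.517 to 1.67 CPM with vehicle, 0.526 to 1.45 CPM at 10 µM and 1.43 to 3.19 CPM at 50 µM, and was higher at 50 µM than with vehicle (1.42, SE 0.41, adjusted p = 0.0362). *Iglc1* and *Iglc3* had log2 fold changes of 1.12 (SE 0.41, adjusted p = 0.0879) and 1.25 (SE 0.48, adjusted p = 0.104) for the same comparison. These genes are near copies of each other, so the split of reads between them is uncertain. Lambda made up 18.6% ± 11.5 of light chain constant reads with vehicle, 16.0% ± 4.65 at 10 µM and 23.7% ± 5.80 at 50 µM (SD, n = 4), and the ranges of the 3 groups overlapped.

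Variable segments, of which each B cell clone uses its own pair, were spread over many genes. Of 185 heavy chain segments listed, 98 had a read in some library, and 29 to 39 were seen per vehicle library, 42 to 52 per 10 µM library and 34 to 55 per 50 µM library. Their summed level was 6.56 ± 1.19, 8.51 ± 0.303 and 8.19 ± 1.49 CPM (SD, n = 4). Of 160 kappa segments, 87 had a read, and their sum was 5.51 ± 0.307, 6.12 ± 0.440 and 7.14 ± 0.731 CPM, with all 50 µM libraries (6.20 to 7.86 CPM) above all vehicle libraries (5.18 to 5.82 CPM). By the mean over the 12 libraries, the most abundant segment of each locus was *Ighv1-41*, *Igkv4-55* (0 to 24 reads per library) and *Iglv1*, and single libraries differed in their top segment. In no library did 1 heavy chain segment take more than 16.8% of heavy chain segment reads, or 1 kappa segment more than 13.1% of kappa segment reads. Segments share sequence, so counts of single segments are uncertain.

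Some of these calls lay close enough to the threshold to be lost when 1 library was left out, while their fold changes kept their direction. At 10 µM against vehicle, the call of *Blnk* was lost without any of 5 libraries (adjusted p up to 0.139) and that of *Sdc1* without any of 6 (up to 0.0954), each with its highest value without 10 µM replicate 2. The log2 fold change lay between 0.62 and 0.74 for *Blnk* and between 0.54 and 0.65 for *Sdc1* over the libraries left out, and at 50 µM that of *Syk* between -0.34 and -0.23. At 50 µM against vehicle, *Syk* lost its call without any of 7 libraries (up to 0.13), *Plcg2* of 6 (up to 0.116), *Iglc2* of 5 (up to 0.131) and *Lef1* of 4 (up to 0.064). *Pou2af1* lost it without replicate 2 of the 50 µM group (0.0543). Between the doses, *Fcer2a* and *Cd200* lost their calls without any of 7 libraries (up to 0.126 and 0.145), *Blnk* of 4 (up to 0.0859), *Pou2af1* of 3 (up to 0.0679), *Derl3* of 3 (up to 0.0666) and *Lef1* of 2 (up to 0.0512), and *Vav1* without replicate 2 of the 50 µM group (0.0523). The other named genes kept their calls with any library left out. The values beside the numbers of libraries are adjusted p-values of edgeR's quasi-likelihood test.

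Markers of other cells were read beside these values. For plasmacytoid dendritic cells, which share *Spib* and other genes with B cells, 9 of 12 markers were tested. Of these, 3 (*Cox6a2*, *Pacsin1* and *Bst2*) were higher at 50 µM than with vehicle, beside 7.00% of all genes tested. The summed level of the 12 was 177 to 195 CPM with vehicle, 206 to 220 CPM at 10 µM and 205 to 225 CPM at 50 µM. The defining marker of these cells, *Siglech*, was at 2.60 to 3.38 CPM with vehicle, 1.56 to 3.22 CPM at 10 µM and 1.89 to 4.20 CPM at 50 µM and did not pass the test. Of 10 tested T cell markers (14 listed), edgeR and DESeq2 called 0 for 10 µM and 0 for 50 µM against vehicle. In edgeR's test, 0 and 1 had an unadjusted p under 0.05, beside 8.78% and 27.9% of all genes tested. Between the doses, both tools called 1 as higher, *Lck*, a kinase gene of T cell receptor signaling, named after its value was seen. By edgeR, 7.52% of all genes tested were called as higher there. The sum of the T cell markers was 5.97 to 13.1, 8.76 to 9.52 and 8.68 to 15.7 CPM. *Cd3e*, of the T cell receptor complex, was at most 0.631 CPM, and the NK cell receptor gene *Ncr1* at most 0.119 CPM. The sum of 10 NK cell markers was 12.3 to 19.6, 13.6 to 19.8 and 12.4 to 17.6 CPM. Of 4 tested NK cell markers and 2 tested erythroid markers, edgeR and DESeq2 called 0 in each comparison. At an unadjusted p under 0.05 in edgeR's test there was 1, an NK cell marker at 50 µM against vehicle, beside 27.9% of all genes tested. Erythroid markers summed to at most 2.54 CPM, and the globin gene *Hbb-bs* was at 0 in 10 of the 12 libraries.

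At 50 µM, markers of myeloid cells went both ways against vehicle, while the 9 B cell genes all had higher means. Of 10 neutrophil markers, 6 were lower at 50 µM than with vehicle, beside 6.50% of all genes tested. The sum of the 10 was 20110 to 28430 CPM with vehicle, 18630 to 21640 CPM at 10 µM and 14120 to 19690 CPM at 50 µM, where no library reached the vehicle range. Of 10 macrophage and monocyte markers, 3 were higher and 3 lower at 50 µM than with vehicle, beside 7.00% and 6.50% of all genes tested. The sum of the 10 was 7368 to 8597, 9002 to 10270 and 8683 to 10460 CPM in the 3 groups. Of 8 tested progenitor markers, *Cd34* and *Gata2* were higher and *Kit* and *Hlf* lower, beside the same 7.00% and 6.50%. Progenitor markers summed to 187 to 202, 182 to 189 and 237 to 244 CPM. Mast cell and basophil markers summed to 280 to 355, 225 to 319 and 267 to 380 CPM, with *Mcpt4* at 0 in all libraries. The share that these other cells had in the levels of the 9 genes was not tested.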

How the data were processed

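The authors trimmed reads of a stranded mRNA kit, aligned them to mm10 and deposited raw counts per Ensembl gene, with no filter. The submitters' processing notes name HISAT2 2.2.1, featureCounts 2.0.1, R 4.3.0 and DESeq2 1.40.2. The strand setting of the counting is not given in the sources used here. In the 10 µM group, the titles of replicates 2 and 3 differ only in a bracketed code, so replicate 3 was identified by its library name. Within each group, the counts of every pair of libraries differed beyond sampling noise. The 9 members, the gene lists and the rules were chosen with earlier results of these data known. Named were the 9, the B lineage genes called in some comparison at a mean of at least 0.5 CPM, a few stage markers, the 10 most similar profiles, and the top variable segment per locus. Some genes under this rule are not reported here.

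Genes over 0.5 CPM in at least 2 of 12 libraries were tested with edgeR 4.0.16 (TMM, glmQLFit, glmQLFTest) in R 4.3.3, per pair of groups on 8 libraries, without a block, with Benjamini-Hochberg adjustment at 0.05. The test was tested on simulated data. Correlations used log2 CPM with a prior count of 2. TPM used merged exon lengths. Alternatives were DESeq2 1.42.0, its size factors in edgeR, no filter, a single fit of all 12 libraries, a replicate block, CPM from library totals, the sum without *Ighm* and *Igkc*, and each library left out in turn. Figures were drawn with matplotlib 3.10.9.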

Additional observations from a re-analysis of the deposited data

Results flagged for a closer look

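Among 114 groups of 4 libraries checked for the B cell genes and the other named genes, 3 held a library far from its other 3, by Dixon's ratio, and chance alone gives such a library in about 1 of 20 groups. *Plcg2* was at 370.7 CPM in vehicle replicate 4 and at 399.9 to 405.0 CPM in the other vehicle libraries. *Lef1* was at 2.901 CPM in vehicle replicate 4 and at 1.361 to 1.567 CPM in the others. *Iglc2* was at 1.67 CPM in vehicle replicate 2, against 0.517 to 0.672 CPM in the others. None of the 9 B cell genes had such a library in any group.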

How the results depend on the processing

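For the 9 genes, each of the 351 values recomputed under an alternative moved by less than the SD between libraries. Named B lineage genes kept their side of the threshold in 552 values and lost the call in 72, and no called value changed direction. The log2 fold change of *Cd79a* at 10 µM, which was not called, fell below 0 without vehicle replicate 3 or without 10 µM replicate 1. The number of all genes called for 10 µM against vehicle moved most, from 61 to 250 with DESeq2, 150 without the filter and 118 with all 12 libraries in the fit, and it lay between 4 (without 10 µM replicate 2) and 122 (without vehicle replicate 4) with a library left out. The 2 further B lineage genes called there became 3 with DESeq2 and 0 to 2 with a library left out. At 50 µM against vehicle, 2010 became 1248 without vehicle replicate 3, 1313 without 50 µM replicate 2 and at most 2689. Between the doses, 2289 became 1604 to 2269 with a library left out. The ratio of the summed level was 2.01 at 50 µM against vehicle and 1.64 between the doses without *Ighm* and *Igkc*, against 1.71 and 1.34 with them, and leaving out libraries gave 1.61 to 1.82 and 1.26 to 1.42. The cause of these shifts was not tested.

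Replicate numbers recur in the groups, but libraries with the same number did not deviate together (r from -0.242 to 0.142), so they were not treated as pairs. With a block for the replicate number, 3, 1830 and 2200 genes were called in the 3 comparisons, of the further B lineage genes 0, 24 and 25, and of the 9 genes 0, 8 and 5. *Ebf1*, with 18 to 116 reads per library, has the widest errors of the 9, and 4 libraries per group and low counts limit what is said of it, of the lambda genes and of single variable segments. Levels are shares of all reads, so they cannot give numbers of cells.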
